A study of Mus musculus with 16 samples.

Results

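Crossover designation and resolution genes were followed in mouse testis in which Ythdc2, an RNA helicase gene of the germ line, had been removed conditionally. The 9 genes were chosen by name for their roles in meiotic recombination: Msh4, Msh5, Hfm1, Tex11, Rnf212, Ccnb1ip1, Cntd1, Mlh3 and Mus81. They were found by their Ensembl identifiers among the 55414 genes of each table, and all 9 passed the filter on low values in every comparison. The groups were control testis (2 libraries at postnatal day 14, P14, and 2 at P16), Cre control testis (2 at P14 and 4 at P16) and Ythdc2 conditional knockout testis (cKO, 3 at each age). Mice received tamoxifen at 10 mg/ml on P12 and P13, a drug that activates inducible Cre recombinases. Which Cre line was used, what the 2 kinds of control carry and whether each library came from another animal are not given in the labels, so p-values measure the spread between libraries, which may be technical. RNA was taken from whole testis. Fewer cells of a type and less RNA per cell therefore cannot be told apart.

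In meiotic prophase the chromosomes are cut, and many of the cuts are repaired on the homologous chromosome. Only a few repair sites become crossovers, the exchanges that hold homologous chromosomes together until they separate. MSH4 and MSH5 form a clamp on the recombination intermediate, HFM1 is a DNA helicase that helps that intermediate along, and TEX11 is a scaffold that joins the clamp at early sites. RNF212 and CCNB1IP1 are ligases of opposing action that narrow the sites down, CNTD1 is a cyclin-like protein needed for the last step of that narrowing, and MLH3 is part of the nuclease that resolves most crossovers in spermatocytes. MUS81 is the nuclease of a separate, minor route.

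The labels were checked on Ythdc2 itself. Its deposited normalized value at P16 was 2666 and 2609 in control libraries and 502 and 541 in cKO libraries 1 and 2, and in all 4 tables each cKO library had less of it than any control. Gene reads per library ranged from 22220565 to 27531529 with the first ribosomal RNA depletion kit (Ribo-Zero; controls and cKO libraries 1 and 2) and from 14494867 to 23200252 with the second (NEBNext; Cre controls and cKO library 3). Germ cells of meiotic prophase were present by their markers. In all P16 libraries 12 early prophase genes summed to 870 to 1681 CPM (gene reads scaled to the same total in each library). Of 7 round spermatid genes, Tnp2 and Prm2 were at 0 reads in all 16 libraries and Prm1 in 15. Acrv1 had 0 to 6 reads, Tnp1 1 to 6, Tssk6 6 to 25 and Spaca1 36 to 209.

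The promoters of 4 of the members are printed first. Tex11 had no promoter entry and could not be printed. In first-kit libraries at P16, Msh5 and Msh4, which encode partners, differed in their change. Hfm1 was lower, as were Tex11 and Rnf212, and only Mlh3 was higher. Each sequence covers the 250 bases before the annotated start and comes from RefSeq for GRCm38.p6, read 5′ to 3′ along the gene's strand. The minus-strand regions are chr17:35046623-35046872, chr3:153904892-153905141, chr5:106925891-106926140 and chr12:85270600-85270849. Capitals mark CNCCTCAG (the motif of STRA8 and MEIOSIN, the activators of meiotic entry) or GCATGC (the core of the NRF1 palindrome), searched on both strands.
Msh5: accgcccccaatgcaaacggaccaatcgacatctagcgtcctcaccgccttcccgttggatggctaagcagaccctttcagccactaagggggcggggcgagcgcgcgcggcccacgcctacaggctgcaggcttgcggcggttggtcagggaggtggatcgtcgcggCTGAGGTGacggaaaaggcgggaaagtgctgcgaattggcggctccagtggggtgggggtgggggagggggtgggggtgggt
Msh4: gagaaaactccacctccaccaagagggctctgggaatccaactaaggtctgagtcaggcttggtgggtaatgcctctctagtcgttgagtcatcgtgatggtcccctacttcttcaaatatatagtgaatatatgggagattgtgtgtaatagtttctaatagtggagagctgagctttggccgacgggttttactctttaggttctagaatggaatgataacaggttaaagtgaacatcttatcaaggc
Hfm1: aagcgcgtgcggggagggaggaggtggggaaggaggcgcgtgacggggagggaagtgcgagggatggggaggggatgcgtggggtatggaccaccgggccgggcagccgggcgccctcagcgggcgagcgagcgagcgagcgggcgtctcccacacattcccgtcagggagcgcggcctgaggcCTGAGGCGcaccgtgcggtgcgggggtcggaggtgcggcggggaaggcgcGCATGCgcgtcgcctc
Mlh3: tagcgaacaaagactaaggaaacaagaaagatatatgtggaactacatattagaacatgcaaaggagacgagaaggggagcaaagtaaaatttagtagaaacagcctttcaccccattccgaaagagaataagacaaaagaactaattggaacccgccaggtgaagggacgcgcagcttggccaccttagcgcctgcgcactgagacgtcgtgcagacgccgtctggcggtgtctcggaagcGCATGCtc

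CNCCTCAG was found in 2 of the 8 members that had a promoter entry, Msh5 and Hfm1, against 6.39% of 27025 RefSeq promoters of the same length. Both matches read CTGAG on the gene's own strand, that is, the motif lies on the other strand. GCATGC was found in 3 members, Hfm1, Rnf212 and Mlh3, against 6.68% of promoters, and this motif was picked after the sequences had been read. AACTG, the core of the MYB family motif, was found in Cntd1 and Ccnb1ip1, against 39.1% of promoters. The Msh5 and Hfm1 promoters held 67.2% and 75.6% G and C, the Msh4 promoter 43.6%, and all promoters had a median of 52%. A match of these letters is a description of the sequence only.

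Per transcript length, Tex11 was the most abundant of the 9 genes in control testis at P16, at 41.2 ± 0.72 RPKM (the CPM level per kilobase of exon; SD, n = 2). Hfm1 (30.3 ± 1.24) and Cntd1 (29.6 ± 0.48) followed and did not differ beyond their spread. Ccnb1ip1 stood at 12.4 ± 0.22 RPKM and Mlh3 at 9.54 ± 0.37 RPKM. The lowest 4 were Msh4 (5.49 ± 0.037), Msh5 (5.07 ± 0.31), Mus81 (4.52 ± 0.12) and Rnf212 (4.33 ± 0.13), and the ranges of Mus81 and Rnf212 stood next to each other (4.43 to 4.60 and 4.23 to 4.42). In the second kit's 4 Cre control libraries at P16 the top 3 were the same genes in another order, with Cntd1 at 27.8 ± 6.66, Tex11 at 24.2 ± 2.73 and Hfm1 at 21.96 ± 3.91 RPKM. The levels are therefore given within a kit throughout. Rnf212 rested on 59 to 192 reads per library, the fewest of the 9, and Tex11 and Hfm1 on at least 1309.

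**Figure D1:**
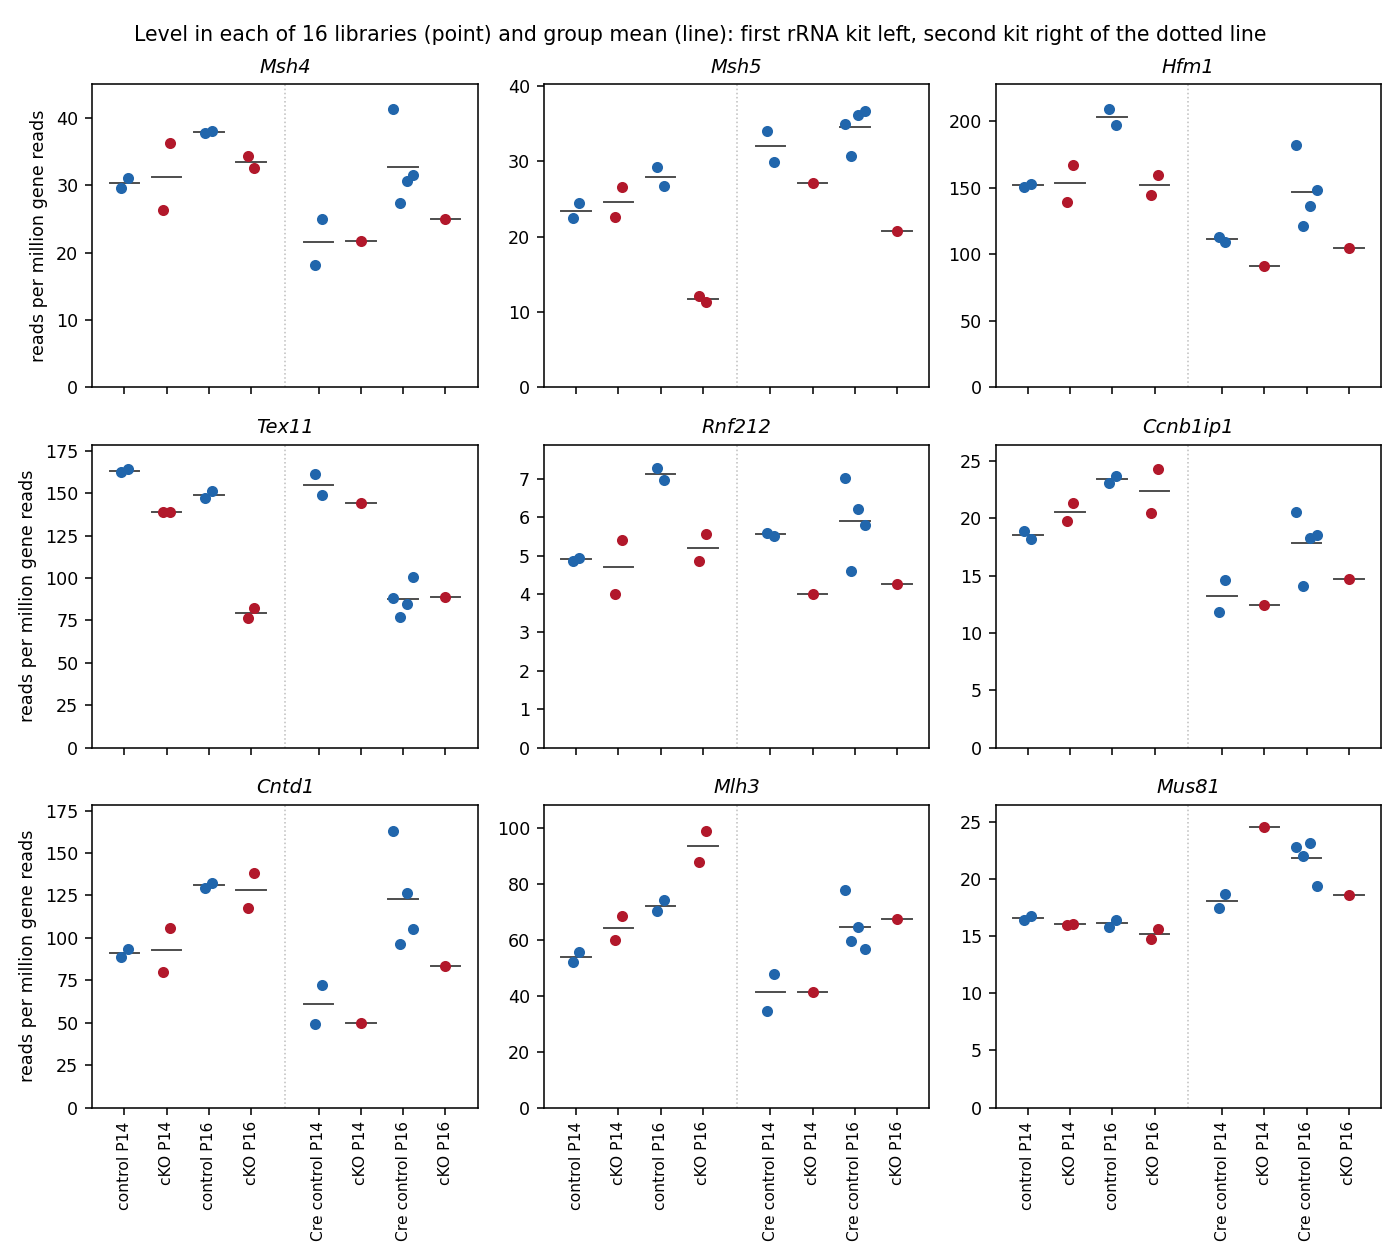
Level of each crossover gene (vertical axis, CPM, from 0) in each of the 16 libraries, control types in blue, cKO in red, horizontal lines the group means, first kit to the left of the dotted line and second kit to the right. At P16 the 2 first-kit cKO libraries of Msh5 lie at 12.1 and 11.4 CPM, below every other library of that gene, and Tex11 in Cre control libraries at P16 lies near the P16 cKO libraries.

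Does removal of Ythdc2 change these genes by P14, a day after the second tamoxifen dose? None of the 9 members was called against control at P14 (limma, Benjamini-Hochberg adjusted p under 0.05 over all genes tested), where 0.00579% of 17270 genes were called. At an unadjusted limma p under 0.05 there were 2 members, beside 410 of the 17270 genes. The adjusted p was 0.9997 for each of these members. Tex11 stood at 3925 and 3958 in controls and 3374 and 3259 in cKO, a log2 difference of -0.25 ± 0.049 (SE). Mlh3 stood at 1257 and 1341 in controls and 1452 and 1607 in cKO, a log2 difference of 0.23 ± 0.074. The cKO libraries did not overlap the controls for 2 members on each side (Tex11 and Mus81 below, Mlh3 and Ccnb1ip1 above), where 14.5% of all genes lay below and 15.1% above. Of the other members called at P16, Msh5, Msh4, Hfm1 and Rnf212 overlapped between the groups at P14. The groups overlapped for Msh5, with 541.5 and 590.6 in controls and 549.6 and 624.3 in cKO (95% interval of the log2 difference -0.18 to 0.28).

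At P16, 6 of the 9 members were called between cKO and control, 5 lower and 1 higher, in a comparison in which 38.6% of 17986 genes were called (19.9% lower and 18.6% higher). The count lies above the background share, but the members were picked with results known, so it supports nothing by itself. The median log2 difference of the 9 genes was -0.17 against -0.0005 for all genes tested. The cKO libraries all lay below the controls for 6 members and all above for 1, where 35.4% and 34.2% of all genes did so.

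Msh5, whose product clamps the intermediate together with MSH4, had the largest difference of the members. It stood at 758.6 and 696.6 in controls and at 316.4 and 297.2 in cKO, so the 2 groups were far apart. The control mean was 2.37 times the cKO mean, and the log2 difference was -1.24 ± 0.082 (SE; limma adjusted p = 4.11e-07), with 0.834% of the genes tested further down. Its partner Msh4 stood at 978.8 and 990.6 in controls and 898.6 and 848.2 in cKO, a log2 difference of -0.17 ± 0.062 (limma adjusted p = 0.0416). The call on Msh4 was lost in 3 of 4 fits without a library (limma adjusted p 0.149 without control library 1, 0.186 without control library 2, 0.15 without cKO library 2) and with DESeq2 (0.183). The ratio of Msh5 reads to Msh4 reads was 0.775 and 0.703 in P16 controls and 0.352 and 0.350 in P16 cKO libraries. In the 4 first-kit libraries of P14 this ratio was 0.734 to 0.861, so the 2 cKO libraries of P16 stood apart from all other first-kit libraries. In the second kit at P16 it was 0.834 in cKO library 3, close to the range of 0.846 to 1.18 in Cre control.

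Tex11 stood at 3830.2 and 3935 in controls and 2002 and 2143 in cKO. The 2 groups did not overlap, and the log2 difference was -0.91 ± 0.049 (limma adjusted p = 6.49e-08). Hfm1 stood at 5419 and 5127 in controls and 3779 and 4166 in cKO, a log2 difference of -0.41 ± 0.052 (limma adjusted p = 7.21e-05). The cKO mean of this helicase gene was 75.3% of the control mean. Rnf212, the pro-crossover ligase, stood at 189.1 and 181.5 in controls and 127.1 and 145 in cKO, a log2 difference of -0.45 ± 0.13 (limma adjusted p = 0.0154). That call was lost without any one of control library 1 (limma adjusted p = 0.0874), control library 2 (0.0502) or cKO library 1 (0.0934), and with DESeq2 (0.102).

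Mlh3, the resolving nuclease subunit, was the member that rose. It stood at 1819 and 1926 in controls and 2290.2 and 2577 in cKO, a log2 difference of 0.38 ± 0.060 (limma adjusted p = 3.88e-04). The remaining 3 members were not called. Ccnb1ip1, the ligase that opposes RNF212, had values of 599.6 and 616.3 against 534.7 and 633.8 (95% interval of the log2 difference -0.25 to 0.12). Cntd1 had 3359 and 3445 against 3075 and 3613 (-0.17 to 0.11), and its call changed without cKO library 2 (log2 difference -0.15, limma adjusted p = 0.0145). Mus81, of the minor route, had 410.4 and 427.2 against 384.3 and 406 (-0.26 to 0.10). Counting was of directional libraries, but whether it used strand is not given in the sources used here, and Cntd1 shares exon sequence with Becn1 and Coa3 and Mus81 with Efemp2 on the opposite strand, so their values are uncertain to that extent.

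Not all of the P16 calls against control were kept in a wider fit. It added the Cre control libraries, the cKO library of the second kit and a term for kit. Which of these changes moved the calls was not tested. With both control types fitted together and kit as a covariate, Msh5 (log2 difference -1.02, limma adjusted p = 0.00142) and Hfm1 (-0.44, 0.0195) were called. Tex11 (-0.50, limma adjusted p = 0.0559), Rnf212 (-0.45, 0.0649), Msh4 (-0.27, 0.137) and Mlh3 (0.24, 0.144) kept their direction and were not called in that fit.

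**Figure D2:**
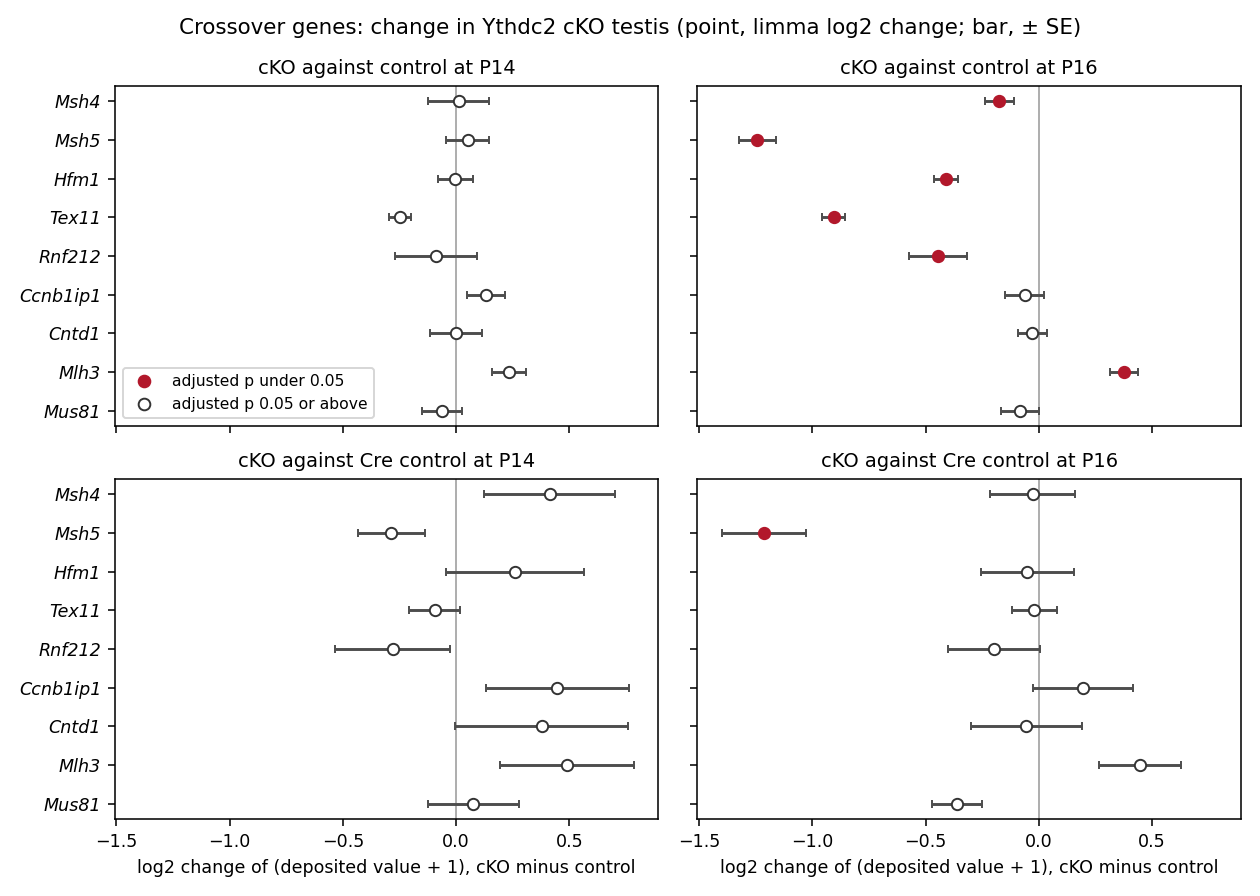
Log2 difference of cKO from the control type named above each panel (horizontal axis, log2 of deposited value + 1; point, limma estimate; bar, SE; red, adjusted p under 0.05) for the 9 genes. In the panel of cKO against control at P16, Msh5 at -1.24 and Tex11 at -0.91 lie farthest left and Mlh3 at 0.38 lies right, and against Cre control at P16 Msh5 alone is red.

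Of 22 other genes of the crossover pathway found in the tables, 14 were called lower and 0 higher against control at P16. Of all 17986 genes tested, 19.9% were called lower and 18.6% higher. The median log2 difference of the 22 was -0.24 against -0.0005 for all genes tested. The 3 largest falls were Rmi2 at -0.87, a part of the complex that dissolves joined intermediates, Exo1 at -0.59, an exonuclease that works with the resolving enzyme, and Hsf2bp at -0.55, a factor that brings BRCA2 to the breaks. Topbp1, Mcm8 and Rnf212b were also lower, with log2 differences of -0.40, -0.40 and -0.50, the last being a close relative of Rnf212 in the same pathway. At P14 none of the 22 was called, in a comparison that called only 0.00579% of 17270 genes.

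Markers of cell types moved in the same libraries, in a comparison that called 19.9% of 17986 genes lower and 18.6% higher. Of 12 early meiotic prophase markers, 11 were called lower (median log2 difference -0.78), and their summed level was 1616 to 1681 CPM in P16 controls and 1142 to 1213 CPM in the cKO libraries. Markers of pachytene and later cells were called higher in 6 and lower in 2 of 12 (2007 to 2040 against 2230.1 to 2483 CPM). Sertoli cell markers were called higher in 7 of 9 (1152 to 1178 against 1332 to 1514 CPM), and all 5 macrophage markers were higher (55.3 to 58.4 against 85.0 to 89.5 CPM). Spermatogonial markers were called higher in 2 and lower in 8 of 12 (809 to 820 against 676 to 684 CPM), and Leydig cell markers higher in 3 of 6 tested (171 to 179.5 against 199.7 to 229 CPM). The part of these shifts in the members' values was not tested.

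The question whether the cKO differences arose between P14 and P16 was put to a direct test. The cKO difference at P16 was tested against that at P14 on first-kit reads (limma on log2 CPM), a test that called 7.39% of 18581 genes (4.49% lower and 2.90% higher). It called 2 of the 9 members, both with a lower value. For Msh5 the difference of differences was -1.28 ± 0.13 (SE; limma adjusted p = 7.88e-04), and for Tex11 it was -0.64 ± 0.073 (limma adjusted p = 0.00161). Hfm1 came near, at -0.39 ± 0.11 (limma adjusted p = 0.0530), and was called by edgeR (adjusted p = 0.0475) and DESeq2 (0.0135). Without cKO library 1 of P14, which leaves 1 library in that group, the estimate was -0.52 for Hfm1 and -0.40 for Msh4. For Mlh3 no difference between the ages was called, at 0.16 ± 0.11 (95% interval -0.09 to 0.40). Of the 12 early prophase markers, 8 were called lower in this test (median -0.63). Their part in the members' result was not tested.

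The cKO libraries were next set against Cre control, the control type whose label names the recombinase. Here cKO libraries 1 and 2 differ from every control in kit, and library 3 shares the kit. At P14, 0 of 9 members and 0% of 18196 genes were called by limma, 0 members and 705 genes having an unadjusted p under 0.05. All cKO libraries lay below the Cre controls at P14 for 1 member, Msh5, as for 14.8% of all genes, and above for 0 (11.7%). At P16, 1 of 9 members was called, where 9.07% of 19200 genes were called (4.77% lower and 4.30% higher). That member was Msh5, at 690.7, 608.3, 729.8 and 724.5 in Cre controls and 259.1, 245.1 and 406.3 in cKO libraries 1 to 3. All 3 cKO libraries lay below all 4 controls, with library 3 the nearest to them. The log2 difference was -1.21 ± 0.18 (SE; limma adjusted p = 0.0367), and the Cre control mean was 2.27 times the cKO mean. Without library 3 it was -1.44 (limma adjusted p = 4.97e-06). That fit cannot tell kit from genotype, and it called 9427 of 19046 genes. With any other library left out the call on Msh5 was lost at -1.08 to -1.27 (limma adjusted p 0.072 to 0.191). Each of those fits called 0 of all genes tested, so the lost call was not particular to Msh5. With kit as a covariate the log2 difference was -0.76 ± 0.14 (limma adjusted p = 0.0986). That estimate is library 3 minus the Cre control mean, since libraries 1 and 2 are the only first-kit libraries in this comparison. It rests on library 3 alone.

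For Tex11 limma called no difference from Cre control at P16 (adjusted p = 0.901). It stood at 1745, 1531, 1707 and 1991 in Cre controls and 1639.8, 1767 and 1732 in cKO (log2 difference -0.02, 95% interval -0.25 to 0.21). The groups overlapped entirely, although cKO libraries 1 and 2 lay at 53.4% of the control mean in the first kit's table. Mlh3 had a log2 difference of 0.45 (limma adjusted p = 0.115) and overlapping groups. Mus81 was the other member with no overlap, at 383.2 to 466.8 in Cre controls and 314.8, 334.7 and 362.6 in cKO (log2 difference -0.36 ± 0.11, limma adjusted p = 0.0618), where 16.9% of all genes had their cKO libraries all below and 13.2% all above. In this comparison 0 of the 22 other crossover genes and 3 of the 12 early prophase markers were called, beside 9.07% of all genes tested.

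Only library 3 can be set beside Cre control with the kit held the same, and it has no replicate. Per the column names, it was sequenced in the same run as both Cre control libraries of P14 and Cre control library 1 of P16, while Cre control libraries 2 to 4 of P16 were in another run. For Msh5 it lay at 406.3 against 608.3 to 729.8 at P16, 59.0% of the Cre control mean, and at 478.2 against 534.3 and 631.5 at P14. For Hfm1 it lay at 2039.5 against 2398 to 3603, and for Cntd1 at 1625 against 1918 to 3218. Tex11 lay within the Cre control range at 1732, and Mlh3 at 1317 against 1120.3 to 1537 did too. Against the Cre control library of the same run alone, library 3 at P16 stood at 58.8% for Msh5, 50.5% for Cntd1, 56.6% for Hfm1, 59.7% for Msh4 and 99.3% for Tex11, where against the mean of all 4 it stood at 59.0%, 66.6%, 69.9%, 74.9% and 99.4%. In all, library 3 was below every Cre control library for 6 of the 9 members at each age, where 33.3% of all genes at P14 and 30.0% at P16 did so, and above for 1 at P14 (Mus81, 431.6 against 323.8 and 333.7; 26.9% of all genes) and 0 at P16 (24.0%). The summed early prophase level of library 3 at P16 was 870 CPM against 917 to 1246 CPM in Cre controls, and its part in these values was not tested.

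**Figure D3:**
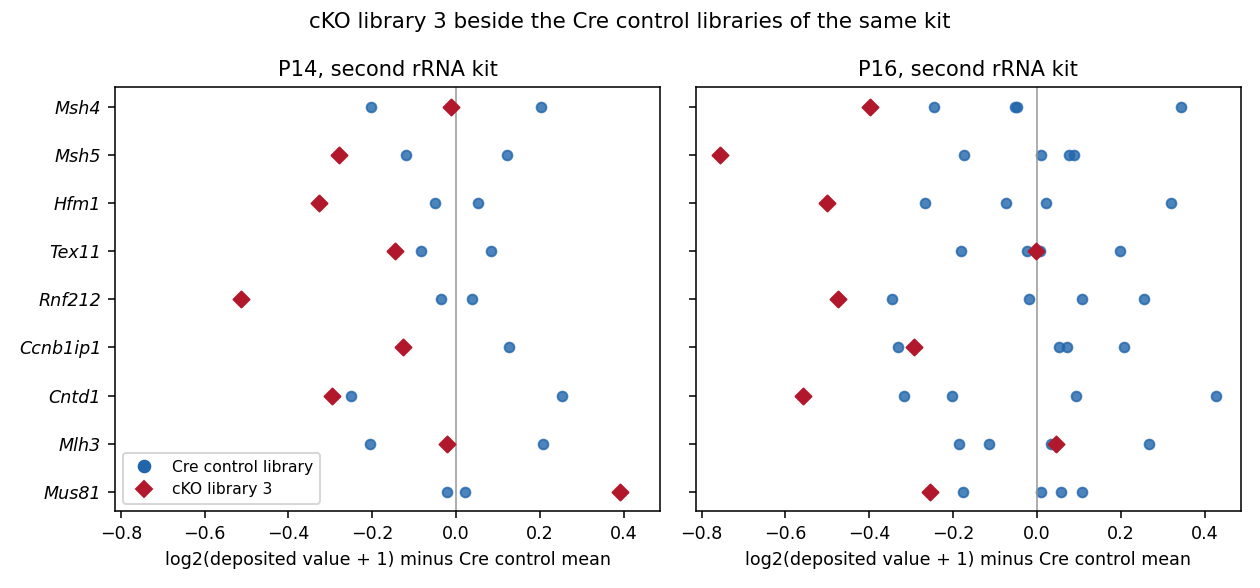
Cre control libraries (blue) and cKO library 3 (red diamond) of the second kit, as log2(deposited value + 1) minus the Cre control mean (horizontal axis), P14 left and P16 right. Msh5 of library 3 lies at -0.76 at P16, left of all 4 Cre controls, and Tex11 lies within them.

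How the genes change with age was tested within each kit on log2 CPM. In control testis, 5 of the 9 members rose from P14 to P16 and 0 fell, with 20.0% of 18581 genes called (13.3% higher and 6.67% lower). They were Rnf212 (log2 change 0.54 ± 0.16 SE), Cntd1 (0.53 ± 0.11), Hfm1 (0.42 ± 0.074), Mlh3 (0.42 ± 0.077) and Ccnb1ip1 (0.33 ± 0.093), with limma adjusted p of 0.00359 to 0.0369. The Rnf212 and Ccnb1ip1 calls were lost whichever control library was left out (limma adjusted p 0.0893 to 0.175), and that of Cntd1 was lost without control library 1 of P14 (0.0625) or without either library of P16 (0.0565 and 0.0688). Msh4 at 0.32 and Msh5 at 0.25 did not pass (limma adjusted p = 0.0712 and 0.0736).

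In cKO testis 4 members were called, 2 in each direction, with 29.8% of the genes called. Mlh3 rose by 0.58 ± 0.077 and Cntd1 by 0.51 ± 0.11 on the log2 scale, as they did in control. The Cntd1 call was lost without cKO library 2 of P16 (log2 change 0.38, limma adjusted p = 0.0708). Msh5 fell by 1.02 ± 0.089 (limma adjusted p = 6.62e-05) and Tex11 fell by 0.77 ± 0.051 (limma adjusted p = 1.94e-05). In the second kit, cKO library 3 of P16 differed from that of P14 by -0.38 for Msh5 and -0.70 for Tex11 on the log2 scale, with no replicate. On the CPM scale, Msh5 of the first kit went from 22.6 and 26.6 at P14 to 12.1 and 11.4 at P16 in cKO, and from 22.4 and 24.5 to 29.2 and 26.8 in control. Hfm1, higher with age in control, had a log2 change of 0.03 in cKO (95% interval -0.14 to 0.19).

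Cre control testis also had 4 members called, 3 higher and 1 lower, with 11.8% of 18975 genes called (8.97% higher and 2.82% lower). Cntd1 rose by 1.02 ± 0.20, Mlh3 by 0.67 ± 0.16 and Msh4 by 0.61 ± 0.18 on the log2 scale, with limma adjusted p of 0.00887, 0.0192 and 0.0496. Both P14 libraries were in 1 run and 3 of the 4 P16 libraries in another, so age and run cannot be told apart for those 3. The P16 library of the same run as P14 lay above the P14 mean by 1.45 for Cntd1, 0.93 for Mlh3 and 0.95 for Msh4 on the log2 scale, and for Tex11 its difference was -0.81. Without Cre control library 1 of P14 these 3 calls were lost (log2 changes 0.76, 0.45 and 0.40), and that of Mlh3 also without library 3 of P16 (0.67, limma adjusted p = 0.0765). The Msh4 call was lost without any single one of the 4 P16 libraries as well (limma adjusted p 0.0542 to 0.128). Tex11 fell by 0.81 ± 0.11 (limma adjusted p = 0.00138), from 161 and 149 CPM at P14 to 77.1 to 101 CPM at P16, so the 2 ages did not overlap. In control testis the log2 change of Tex11 was -0.13 ± 0.051 (limma adjusted p = 0.108), from 163 and 164 to 148 and 151 CPM. The kit, the run and the control type differ between these controls and cannot be told apart. Tex11 is the member on the X chromosome, where the median log2 change over 711 genes was -0.19 in control and -0.15 in cKO, and -0.26 over 800 genes in Cre control. The median over genes of the other numbered chromosomes was -0.005 in control, 0.020 in cKO and 0.005 in Cre control. The part of the X in the fall of Tex11 was not tested.

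**Figure D4:**
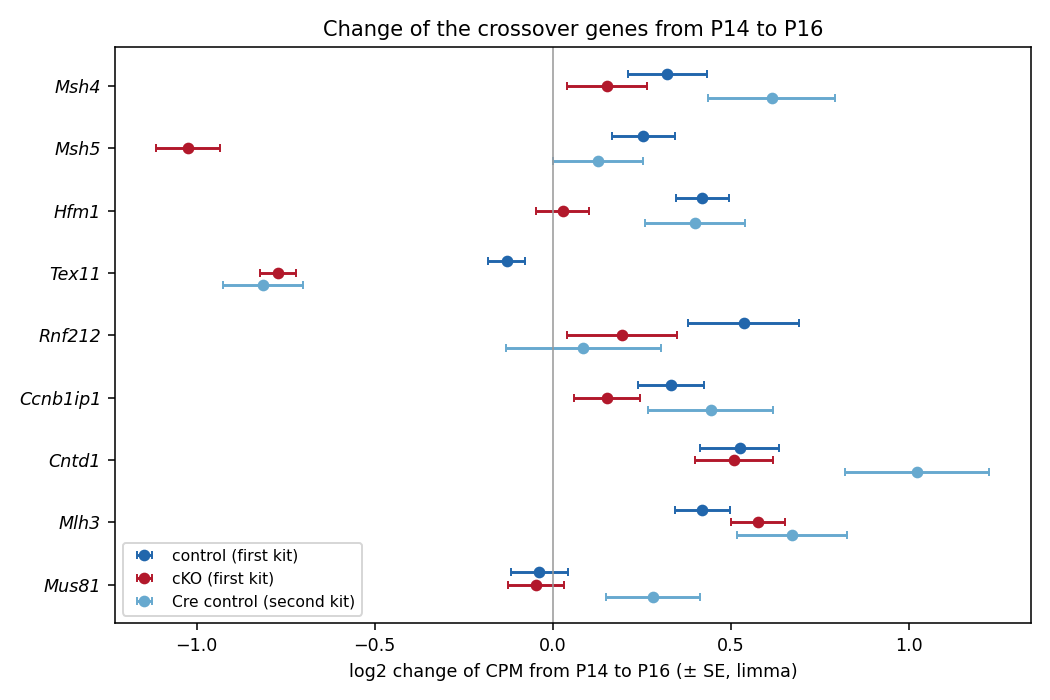
Log2 change from P14 to P16 (horizontal axis, log2 CPM; point, limma estimate; bar, SE) in control (dark blue), cKO libraries 1 and 2 (red) and Cre control (light blue). Msh5 falls by 1.02 in cKO testis with points right of 0 in both control types, while Tex11 is at -0.77 in cKO and -0.81 in Cre control.

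The genes whose levels over the 8 first-kit libraries were most like the mean standardized level of the 9 members, out of 12269 genes with a mean of at least 100 reads, were Dnpep, Mpc2, Cops7a, Zfp131 and Snx27. Their Pearson r was 0.998, 0.993, 0.992, 0.990 and 0.987, and over the 8 second-kit libraries 0.926, 0.820, 0.900, 0.856 and 0.985. Libraries of a group share age and genotype, so these values describe the 8 libraries of a kit only.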

How the data were processed

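Testis RNA of 16 libraries was sequenced. The authors deposited 4 tables, each with the libraries of 1 age and 1 control type, and per the file headers and labels the values are normalized counts, a signal made of gene counts divided by a size factor. Trim Galore, STAR, HTSeq, DESeq2 and GRCm39 are named in the submitters' processing notes, with no version. All 20 columns matched a library. Whole reads were recovered for 100% of values (tolerance 0.001), and cKO libraries 1 and 2 of an age had the same reads in both tables of that age. STAR's summary rows were left out. Libraries held 31762725 to 66621310 reads. Gene names, exon overlaps and lengths came from GENCODE M21, which named 52081 of 55414 identifiers, and sequences from RefSeq.

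Tests within a table used limma 3.58.1 (R 4.3.3, eBayes with trend) on log2 of the deposited values after adding 1, for genes that reached 10 in 2 or more libraries. Tests between ages used log2 CPM (TMM, prior count 1) of recovered reads within a kit, since tables were scaled separately. P-values were adjusted by Benjamini-Hochberg over all genes tested. edgeR 4.0.16 and DESeq2 1.42.0 on recovered reads, other pseudocounts, filters and scalings, eBayes without trend, the replicate block, the kit as a covariate, both control types together, and each library left out were alternatives. The scripts were tested on simulated data. The members and gene lists were chosen with earlier results of these data known. Named are all members, Ythdc2, the 3 largest called rises and falls of the other crossover genes and the 5 genes most like the members. Topbp1, Mcm8 and Rnf212b were named outside that rule, after their values were seen. Of 26 other crossover genes listed, 22 were matched in the tables.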

Additional observations from a re-analysis of the deposited data

Results flagged for a closer look

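The cKO difference of Msh5 was not the same at the 2 ages. The test of the difference itself gave -1.28 on the log2 scale (limma adjusted p = 7.88e-04), with cKO below control in each of the 2 cKO libraries at P16 and groups that overlapped at P14. The cKO difference of Tex11 was also larger at P16, with a difference of differences of -0.64 (limma adjusted p = 0.00161), and both cKO libraries lay below both controls at each age. Of all genes tested, 14.5% at P14 and 35.4% at P16 had both cKO libraries below both controls. These values rest on first-kit libraries, 2 per group. In the second kit, cKO library 3 minus the Cre control mean was -0.28 at P14 and -0.76 at P16 for Msh5 on the log2 scale, and -0.15 at P14 and -0.0026 at P16 for Tex11, so for Tex11 the second kit did not show a larger difference at P16. Library 3 has no replicate, and the difference between kits was not tested.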

How the results depend on the processing

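No alternative reversed the direction of a called member. Against control at P16, 6 members were called, 2 without the trend (Msh5 and Tex11), 2 with both control types fitted together and kit as a covariate (Msh5 at -1.02 and Hfm1 at -0.44, where Tex11 had -0.50 at adjusted p = 0.0559), and 4 to 6 with a library left out. Against Cre control at P14, 0 were called, 5 (all higher) with the replicate block and 0 to 4 with a library left out. The 4 came without cKO library 3. The block takes up that same library, the only library numbered 3 there, so in both fits kit and genotype cannot be told apart. Over all genes, 6966 of 18196 were called with the block and 6256 of 17924 without cKO library 3. Against Cre control at P16, 1 was called, 0 without the trend, with the replicate block or with kit as a covariate, 2 with DESeq2 or with both control types together, and 0 to 4 with a library left out. There the 4 came without cKO library 3, when kit and genotype cannot be told apart, and the 0 without each of the other 6. Each of those 6 fits called 0 of all genes tested. The difference between ages in the cKO effect was called for 2 members, and for 1 without the trend (Tex11 had adjusted p = 0.0574). Leaving out a library leaves 1 in its group there, and the Msh5 estimate was then -1.20 to -1.39. From P14 to P16 in control, 5 were called, 3 without a filter or with DESeq2, 1 without the trend and 2 to 3 with a library left out. In Cre control, 4 were called, 0 without a filter, 1 without the trend and 1 to 4 with a library left out. In cKO, 4 were called and 3 to 5 with a library left out. Between the ages, calls over all genes fell as well. In control they went from 3714 of 18581 to 2743 of 33819 without a filter and 2612 with DESeq2. In Cre control they went from 2237 of 18975 to 49 of 33458 without a filter and 879 without the trend. In those fits the lost calls were not particular to the members. The causes were not tested. Over all genes, calls against control at P16 were 6939, and 1806 without the trend or 2701 with both control types. Against Cre control at P16 they were 1741, and 32 without the trend, 0 with the replicate block, 1 with kit as a covariate and 4188 with DESeq2. The labels do not say that replicate numbers mark pairs, and deviations of same-numbered libraries correlated at -0.23 to 0.30, so the numbers were not taken to pair the libraries. In the Cre control comparison at P16, 2 of 3 cKO libraries correlated best with their own number. With the replicate block, control testis had 6 members called between ages in place of 5 (Msh4 added, adjusted p = 0.0416), and Hfm1 was added in the difference between ages in the cKO effect (adjusted p = 0.0251). Depth limits Rnf212 most, with as few as 59 reads.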

Other observations

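The ratio of Ccnb1ip1 reads to Rnf212 reads, the ligases of opposing action, was 3.17 and 3.40 in control libraries at P16 and 4.21 and 4.37 in cKO libraries 1 and 2. At P14 the first-kit ratios were 3.89 and 3.68 in control and 4.95 and 3.94 in cKO, again with both cKO libraries above both controls. In the second kit the P14 ratio was 2.11 and 2.65 in Cre control and 3.10 in cKO library 3, and the P16 ratio was 2.93 to 3.19 in Cre control and 3.44 in cKO library 3. The ratio of Msh5 to Msh4 reads in that kit was 0.846 to 1.18 in Cre control and 0.834 in cKO library 3 at P16. At P14 it was 1.88 and 1.20 in Cre control and 1.25 in cKO library 3. These ratios were chosen after their values were seen and were not tested.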
